A study of Caenorhabditis elegans with 2 samples.

Results

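The 10 genes described here encode core components of the Notch pathway of *Caenorhabditis elegans*: the receptor genes *lin-12* and *glp-1*, the ligand genes *lag-2*, *apx-1* and *dsl-1*, the protease genes *sup-17* and *sel-12*, the ubiquitin ligase gene *sel-10*, and *lag-1* and *sel-8*, whose products act on DNA. They were taken by name, with earlier results of these data known, and are 10 of the 19985 protein-coding genes annotated in Ensembl release 115. The DNA that EGL-43 occupies was mapped with ChIP-seq (sequencing of the fragments precipitated with a protein) in whole larvae of an *egl-43::gfp* strain. The sample labels call it GFP tagged in wild-type. In it, *gfp* follows the endogenous *egl-43* coding sequence and so labels both isoforms. The paper lists this fusion as allele zh136 but does not name the strain used for ChIP-seq. A listed strain with zh136 also carries an *rrf-3* mutation and a *lam-1::gfp* transgene, and whether it was the one used is not stated. The animals were L3 larvae grown at 25°C for 27 h, and chromatin was fixed with formaldehyde and EGS before precipitation with the anti-GFP antibody ab290. The 2 replicates were independent experiments on this 1 condition, and no untagged strain, input DNA or mutant was used here. The enrichment given by the tagged protein and an excess of reads from another source therefore cannot be told apart, and a peak does not tell which cells were bound.

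In Notch signalling, a transmembrane ligand on one cell binds a receptor on its neighbour. The receptor is then cut outside the membrane by an ADAM protease and inside the membrane by the presenilin complex, and its intracellular part enters the nucleus. There it joins the DNA-binding protein LAG-1 (CSL) and the Mastermind-like protein SEL-8 to activate transcription, until the F-box protein SEL-10 targets it for degradation. In the somatic gonad, LIN-12 and LAG-2 decide which of the equivalent precursors becomes the anchor cell and which becomes a ventral uterine precursor, and in the germline GLP-1 keeps the stem cells dividing. EGL-43, the homolog of mammalian EVI1, is a zinc finger protein present in the anchor cell and its uterine neighbours. At the L3 stage, it was also reported in neurons of the head and tail. The comparison asks at which pathway genes EGL-43::GFP was enriched in both replicates.

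Every peak that touched a gene or the 5000 bp upstream of its start was collected. Overlapping peaks were merged into regions, and those to which both replicates contributed were termed shared. The list of replicate 1 holds 8394 peaks and that of replicate 2 holds 10925, which gave 7259 shared regions among 11650 regions in all. For each peak, the fold enrichment is the deposited ratio of reads at the summit to the background estimated by the peak caller. Over all shared regions, the log2 ratios of replicate 2 to replicate 1 were centred on a median of 0.135, their SD was 0.31, which is 1.24-fold, and 95% of the ratios fell between -0.49 and 0.75. This SD served as the replicate error, since read totals are absent from the lists and the depth is unknown. It measures how far the replicates differ within a region found in both lists. For differences between regions it is therefore only a rough scale.

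Of the 10 Notch genes, 7 had a shared region (*lin-12*, *lag-1*, *dsl-1*, *sup-17*, *sel-12*, *sel-10* and *sel-8*), against 34.4% of all protein-coding genes. *lag-2* had a peak in replicate 1 only, and *glp-1* and *apx-1* had none in either list. A peak of at least 1 list thus occurred at 8 of the 10, against 45% of protein-coding genes. When the highest summit itself had to lie in the gene or the 5000 bp, 6 of the 10 kept a shared region, against 33.5% of protein-coding genes, because the only shared region of *dsl-1* touched the limit with its edge. With 500 bp upstream, the number was also 6, against 18.3%. In length classes chosen after these counts were known, the background rose with gene length, from 28.5% for genes under 3000 bp through 44.1% for those of 3000 to 10000 bp to 61.9% for longer ones. In these classes, 2 of 3, 2 of 3 and 3 of 4 Notch genes had a shared region. With so few genes, no excess over the background was tested.

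The members held 15 shared regions and 8 peaks found in 1 list only, 3 in replicate 1 and 5 in replicate 2. The lower fold enrichment of the replicates, by which regions were ranked, ran from 2.70 to 8.87 over the 15 regions, with a median of 3.80 against 3.69 for all shared regions. Of the 15, 3 were among the first 1000 ranks, a limit that holds 13.8% of all shared regions, and these 3 lay in *lag-1* and *sel-8*. The peaks of 1 list were weak, between 2.61 and 3.46 with a median of 2.95, which is also the median of all regions found in a single list.

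**Figure D1:**
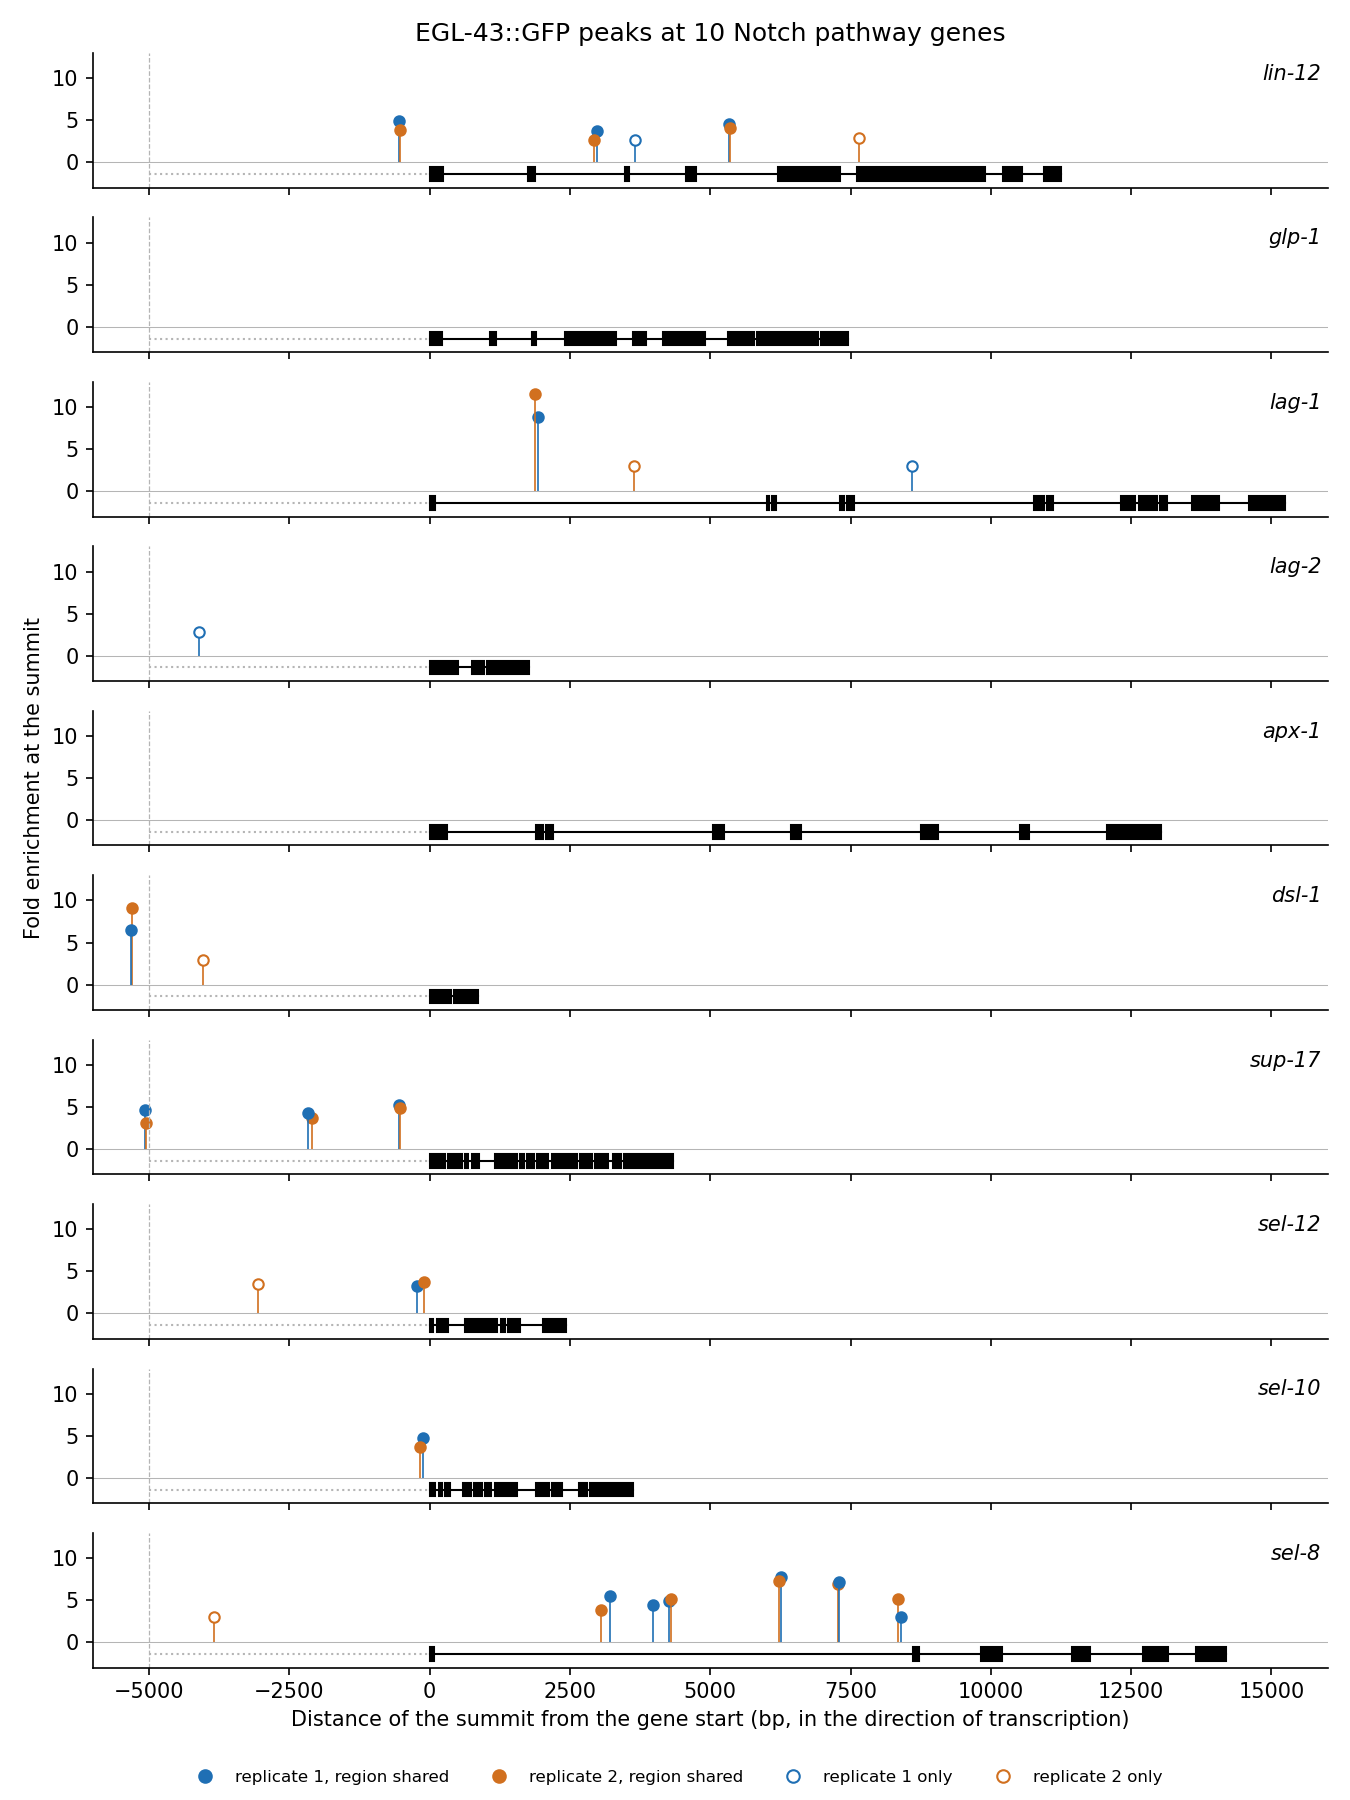
Summits of all EGL-43::GFP peaks at the 10 genes, with the fold enrichment on the vertical axis and the distance from the gene start in bp on the horizontal axis, where black boxes are exons of the longest transcript and the dashed line marks 5000 bp upstream. Filled circles are peaks of shared regions and open circles peaks of 1 replicate only. The highest summits stand in the first intron of *lag-1* (8.87 and 11.55), *sel-8* has 5 shared regions in its first intron, and *glp-1* and *apx-1* are empty.

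*lin-12*, which encodes the receptor used in the anchor cell decision and in vulval patterning, spans 9060221 to 9071472 on the minus strand of chromosome III (WBcel235). It had 3 shared regions, each of them higher in replicate 1 than in replicate 2. Upstream of the gene, at 9071881 to 9072224, the fold enrichments were 4.96 and 3.80, with the summit 551 bp before the gene start and 635 bp before the first coding base. That in intron 2 gave 3.73 and 2.70, and that in intron 4 gave 4.53 and 4.14. Between the replicates, the log2 ratios were -0.39, -0.47 and -0.13, all within the range of 95% of shared regions, whereas replicate 1 was the higher in only 32.6% of the shared regions of the genome. Which *lin-12* region was strongest depended on the replicate: it was the upstream one in replicate 1 and the one in intron 4 in replicate 2. Single peaks at the gene were weaker, 2.61 in intron 3 (replicate 1) and 2.95 in exon 6 (replicate 2). No further peak lay upstream, where the next protein-coding gene, F02A9.7, is 3232 bp away.

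The sequences under the *lin-12* summits are shown because LAG-1, the effector of this receptor, binds sites with the core TGGGAA. They run 5′ to 3′ on the strand of the gene, are centred on the midpoint of the replicate summits, and have any TGGGAA or its complement TTCCCA in capitals. In this order, they cover 9071961 to 9072061 (101 bp), and, wider by 50 bp on each side to include the words further out, 9068420 to 9068620 and 9066036 to 9066236 of chromosome III (RefSeq genome, WBcel235).
*lin-12* upstream: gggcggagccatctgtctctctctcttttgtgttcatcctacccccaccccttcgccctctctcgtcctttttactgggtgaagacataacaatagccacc
*lin-12* intron 2: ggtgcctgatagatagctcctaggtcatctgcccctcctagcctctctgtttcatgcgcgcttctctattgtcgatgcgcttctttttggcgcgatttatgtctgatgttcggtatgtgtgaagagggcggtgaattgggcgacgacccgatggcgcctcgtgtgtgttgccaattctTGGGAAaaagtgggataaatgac
*lin-12* intron 4: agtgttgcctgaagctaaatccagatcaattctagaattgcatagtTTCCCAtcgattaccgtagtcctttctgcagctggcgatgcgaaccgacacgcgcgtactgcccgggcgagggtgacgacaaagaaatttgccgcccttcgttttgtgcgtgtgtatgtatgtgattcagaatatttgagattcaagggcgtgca

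The core occurred once in each of the intronic *lin-12* windows, 78 bp to the 3′ side of the summit midpoint in intron 2 and 49 bp to the 5′ side in intron 4, where it lies on the opposite strand. These were the only 2 of the 15 member regions with TGGGAA within 100 bp of the summit on either strand. Among all 7259 shared regions, 972 (13.4%) held it in a window of that width, so that 2 of 15 is close to the general share. Known LAG-1 sites carry a purine before the core, which was counted after the windows had been seen. The heptamer ATGGGAA occurred at 1 member region, that in intron 4 of *lin-12*, and in 5.32% of all shared regions, and GTGGGAA at none and in 3.53%. Within 50 bp of the summit, the core was complete at none of the 15 regions and at 7.15% of all. A match describes the letters and is not evidence that LAG-1 or EGL-43 occupies them.

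*glp-1*, the paralog of *lin-12* that acts in the germline and the early embryo, lies 20768 bp beyond the start of *lin-12* on the same chromosome (9092241 to 9099698, plus strand). Its whole length of 7458 bp and the 5000 bp before it were free of peaks. The nearest shared regions were 20017 bp before the gene, which is the upstream region of *lin-12*, and 11262 bp beyond its end. Between the receptor genes, the lists held 1 further peak, in replicate 2 only, with a fold enrichment of 2.70 and its summit 818 bp from the start of F02A9.1. The paralogs thus differed in that *lin-12* had peaks in both replicates and *glp-1* in neither, but absence from a peak list says only that no excess passed the authors' cutoff, since the reads at *glp-1* were not counted here.

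Of the 3 ligand genes, 1 (*dsl-1*) had a shared region, against 34.4% of all protein-coding genes. LAG-2 is the ligand that the presumptive anchor cell presents to its neighbour, and its gene (chromosome V, 3188343 to 3190115, plus strand) had no shared region. A weak peak (2.79) of replicate 1, at 3184082 to 3184360, had its summit 4119 bp upstream, over the lincRNA gene *linc-160*. APX-1, a ligand of the early embryo that also takes part in vulval lateral signalling, is encoded 20080 bp further on the same chromosome (3210196 to 3223221, plus strand). *apx-1* was likewise empty over its 13026 bp and the 5000 bp before it, although 61.9% of genes over 10000 bp had a shared region. Between *lag-2* and *apx-1* stood 2 shared regions that fall outside both windows. Their fold enrichments were 5.24 and 4.80, and 4.69 and 5.33 in replicates 1 and 2, and their summits lay 10 bp from the start of Y73C8B.3 and 283 bp from that of Y73C8B.2.

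DSL-1 is a secreted ligand of the vulval lateral signal, and its gene, of only 863 bp, lies on the minus strand of chromosome IV (1207218 to 1208080). The shared region at 1213055 to 1213577 had fold enrichments of 6.45 and 9.11, in this order of replicates, the highest values at a ligand gene. However, only 26 bp of it lay within the 5000 bp limit, its summit stood 5298 bp upstream of *dsl-1*, and the start of W09G12.9 was nearer, at 3212 bp. Its assignment to *dsl-1* therefore rests on the width of the window, and it was lost at 2000 bp. A weaker peak of replicate 2 alone, 4038 bp upstream, had a fold enrichment of 2.95.

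*sel-12* encodes presenilin, the catalytic subunit of the complex that releases the intracellular part of the receptor, and lies on chromosome X (915867 to 918290, plus strand). Its only shared region, from 915512 to 915864, ended 3 bp before the gene. Replicate 1 gave 3.31 and replicate 2 gave 3.72, the weakest among the strongest regions of the 7 genes. The summits stood 133 bp apart, at 227 bp and 94 bp upstream of the gene start, and the region was lost when summits more than 100 bp apart were no longer paired. A peak of replicate 2 alone, at 3.46, had its summit 3067 bp upstream of *sel-12* but 490 bp upstream of F35H12.6, the next gene. The sequence between the summits, from 915656 to 915756, is printed because the region abuts the gene and stands before its first coding base, which follows the annotated start by 7 bp.
*sel-12* upstream: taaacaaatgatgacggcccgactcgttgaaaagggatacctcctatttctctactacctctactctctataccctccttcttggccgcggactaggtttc

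*sup-17*, the gene of the ADAM10-type protease that makes the outer cut in the receptor, lies on chromosome I (8792964 to 8797295, plus strand) and had 3 shared regions, all upstream. The closest, from 8792252 to 8792693 with its highest summit 552 bp before the gene, gave 5.29 in replicate 1 and 4.90 in replicate 2. The region from 8790710 to 8791140, 2161 bp upstream, gave 4.27 and 3.63. That from 8787730 to 8788151 gave 4.62 and 3.04, a difference of -0.60 on the log2 scale that lay outside the range of 95% of shared regions. Its highest summit, 5066 bp upstream, was beyond the limit, and the start of *mfb-1* was nearer to it (2483 bp). Replicate 1 was the higher at all 3, as at *lin-12*, and no peak of a single list was found. The closest region also overlapped a pair of short ncRNA genes, both named DY3.11.

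**Figure D2:**
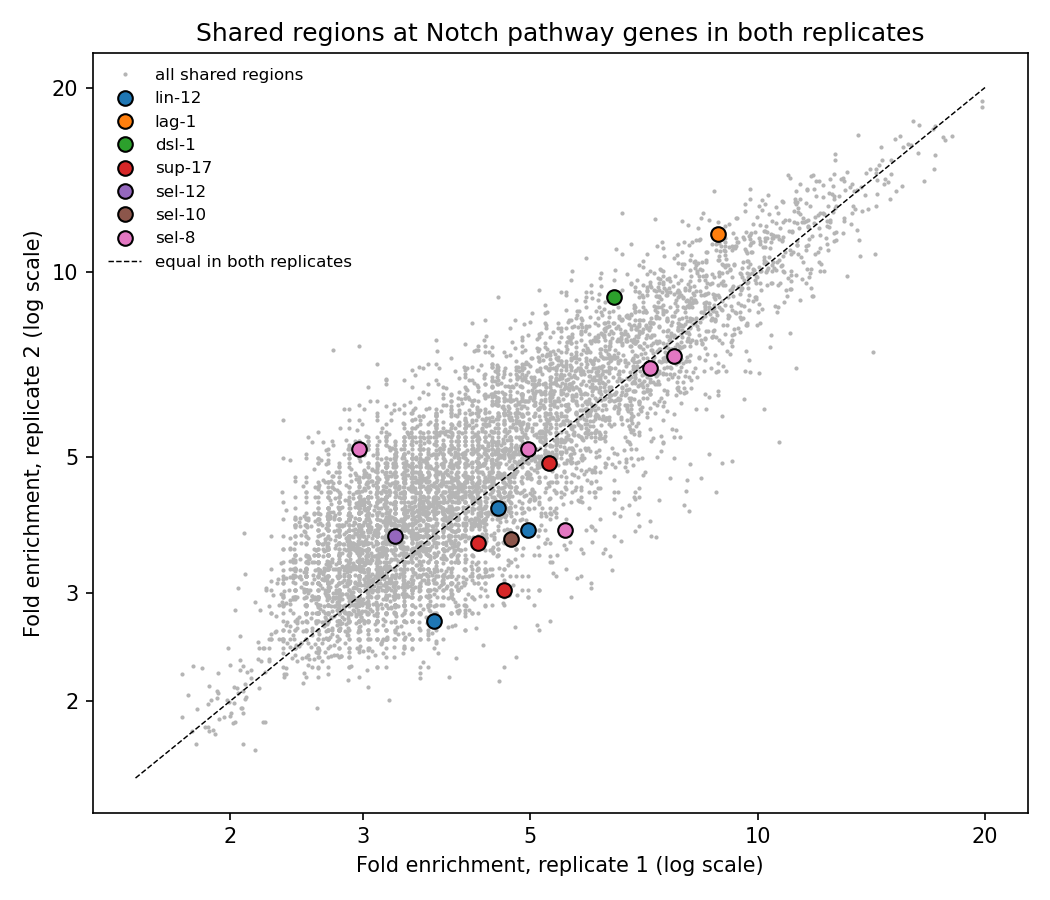
Fold enrichment in replicate 1 against replicate 2 (log scales) for all 7259 shared regions (grey) and the 15 at Notch genes (coloured by gene), with the line of equal values. Of the 15, 10 lie below the line and are higher in replicate 1, against 32.6% of all shared regions. Among these 10 is every region of *lin-12* and *sup-17*. The regions of *lag-1*, *dsl-1* and *sel-12* lie above the line, as do some of those of *sel-8*.

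*lag-1* encodes the CSL protein that brings the receptor's intracellular part to DNA, and held the strongest region of the 10 genes. The gene covers 15249 bp of the plus strand of chromosome IV (6095407 to 6110655), of which intron 1 takes up 5917 bp. The shared region, from 6097009 to 6097895, lay wholly in this intron, with summits 58 bp apart and the higher of them 1874 bp downstream of the gene start. Replicate 1 gave a fold enrichment of 8.87 and replicate 2 one of 11.55, at −log10 q-values of 67.6 and 108.5. The region ranked 363 of 7259, within the highest 5%, and was longer (887 bp) than most, since 6.52% of shared regions were at least as long. Replicate 2 was higher by 0.38 on the log2 scale, 0.79 SD from the median ratio of all shared regions. Of all protein-coding genes, 2.86% had a region at least as strong. The other peaks of *lag-1* appeared in 1 list each, at 2.95 in intron 1 for replicate 2 and at 2.96 in replicate 1, the latter in intron 5 of the longest transcript but in an exon of another.

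*sel-8* (also *lag-3*), the gene of the Mastermind-like coactivator that binds LAG-1 and the receptor fragment, had the most regions of the 10 genes. It occupies 3612951 to 3627142 on the minus strand of chromosome III, and its first intron alone measures 8533 bp. All 5 shared regions of the gene had their summits in this intron, where they covered 3810 bp or 44.7% of its length. Among all protein-coding genes, 1.24% had 5 or more shared regions under the same rule. Most of those genes are shorter than *sel-8* (14192 bp), and the share among genes of similar length was not counted. Counted from the gene start, the first region (3623704 to 3624229) gave 5.55 and then 3.80 in replicate 2. The second (3622639 to 3623330) gave 4.96 and 5.15, with almost no difference between the replicates. Region 3, from 3620539 to 3621953, reached 7.75 and 7.31 and was the longest among the members at 1415 bp, a length that 1.93% of shared regions reached. A gap of only 62 bp separated it from region 4 of the intron (3619632 to 3620476), at 7.20 and 6.97, and both together formed an almost continuous stretch of enrichment. The innermost, region 5, from 3618599 to 3618930, gave 2.96 and 5.15 and ended the row. Its higher summit lay 260 bp before the start of the shorter transcript C32A3.1b.1 at 3618531. All 5 regions are intronic in the longest transcript but lie upstream of this second start. It was also the nearest *sel-8* start for regions 3 and 4, whose summits were 2356 bp and 1310 bp before it.

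The *sel-8* regions differed in how well the replicates matched. The log2 ratios of regions 2, 3 and 4 were 0.05, -0.09 and -0.05, which are 0.26, 0.71 and 0.58 SD from the median ratio of all shared regions. The first and the innermost, at -0.55 and 0.80, were outside the range that held 95% of all shared regions and in opposite directions. Besides the 5 regions, replicate 2 listed a peak at 3.03 with its summit 3849 bp upstream of *sel-8*, which was only 619 bp from the start of *mrps-31*. The near edge of that neighbour is 92 bp from *sel-8*. The ncRNA gene C32A3.7 falls inside the longest region.

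The windows of 101 bp at the strongest regions of *lag-1* and *sel-8* are given because these ranked highest among the members by the lower replicate value, and that at the innermost *sel-8* region because it precedes the shorter transcript. They cover 6097260 to 6097360 of chromosome IV, and 3620849 to 3620949, 3619806 to 3619906 and 3618719 to 3618819 of chromosome III, each on the strand of the gene. None holds any of the 4 words searched for, so all letters are in lower case.
*lag-1* intron 1: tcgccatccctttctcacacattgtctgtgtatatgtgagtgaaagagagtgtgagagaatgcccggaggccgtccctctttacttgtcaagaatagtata
*sel-8* intron 1, region 3: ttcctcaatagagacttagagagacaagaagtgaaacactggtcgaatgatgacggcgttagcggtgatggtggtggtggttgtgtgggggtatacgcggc
*sel-8* intron 1, region 4: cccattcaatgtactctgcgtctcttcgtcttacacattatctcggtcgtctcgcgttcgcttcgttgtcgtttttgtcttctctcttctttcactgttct
*sel-8* intron 1, region 5: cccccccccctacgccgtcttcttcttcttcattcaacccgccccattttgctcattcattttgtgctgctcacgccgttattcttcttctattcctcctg

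*sel-10* encodes the F-box protein, homologous to mammalian FBXW7, that lowers the level of LIN-12 and GLP-1 activity. The gene lies on chromosome V (13819361 to 13822980, plus strand) and had 1 shared region, from 13818993 to 13819374, which covered the gene start and reached 14 bp into exon 1. Replicate 1 gave a fold enrichment of 4.72 and replicate 2 gave 3.67, with summits 38 bp apart and the higher of them 127 bp upstream of the gene start. *sel-10* was the only member with a region across its start, and its region ranked 3647 of 7259, in the middle of the shared regions. The sequence from 13819165 to 13819265 is shown as the promoter-proximal window of this gene.
*sel-10* upstream: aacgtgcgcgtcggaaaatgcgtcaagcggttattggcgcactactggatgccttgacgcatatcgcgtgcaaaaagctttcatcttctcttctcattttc

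Besides the LAG-1 core, 3 further words were searched on both strands within 50 bp of the summit midpoint. The sequence AGATGAG, which the distal zinc fingers of mammalian EVI1 recognise, occurred at 1 of the 15 member regions, the most distant one of *sup-17*, and at 4.02% of all shared regions. The word of the proximal fingers of EVI1 was searched as ACAAGATA and occurred at none of the 15, against 0.248% of all. The binding site of AP-1, the dimer that the product of *fos-1* can form, was searched as TGACTCA, and it too was at none of the member regions, against 3.39% of all. Windows of 100 bp on either side added no member region for these 3 words. The GC content of the 15 windows was between 39.6% and 57.4%, with a median of 49.5% against 45.5% for all shared regions.

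The strongest regions of the genes fell into an order that the replicates resolved only in part. *lag-1* (8.87 to 11.55) did not overlap *sel-8* (7.31 to 7.75). Its lower value exceeded that of *sel-8* by only 0.28 on the log2 scale, however, less than the SD of 0.31. The range of *dsl-1* (6.45 to 9.11) overlapped both. Below them, *sup-17* (4.90 to 5.29) was apart from *dsl-1* and from the intron 4 region of *lin-12* (4.14 to 4.53). However, its lower value exceeded that of *lin-12* by only 0.24 on the log2 scale, less than the SD of 0.31. The upstream region of *lin-12* reached 4.96 in replicate 1, inside the range of *sup-17*. *sel-10* (3.67 to 4.72) overlapped *lin-12*, and *sel-12* (3.31 to 3.72) overlapped *sel-10*. By the share of protein-coding genes with a region at least as strong, the order ran from 2.86% for *lag-1* and 5.44% for *sel-8* through 7.6% for *dsl-1*, 13.8% for *sup-17*, 18.6% for *lin-12* and 22.1% for *sel-10* to 25.4% for *sel-12*. By the lower value, *lag-1* and *sel-8* came first, and *lin-12* came after *dsl-1* and *sup-17*. In replicate 2 alone, *dsl-1* (9.11) was higher than *sel-8* (7.31), although the summit of the *dsl-1* region lies beyond the upstream limit.

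**Figure D3:**
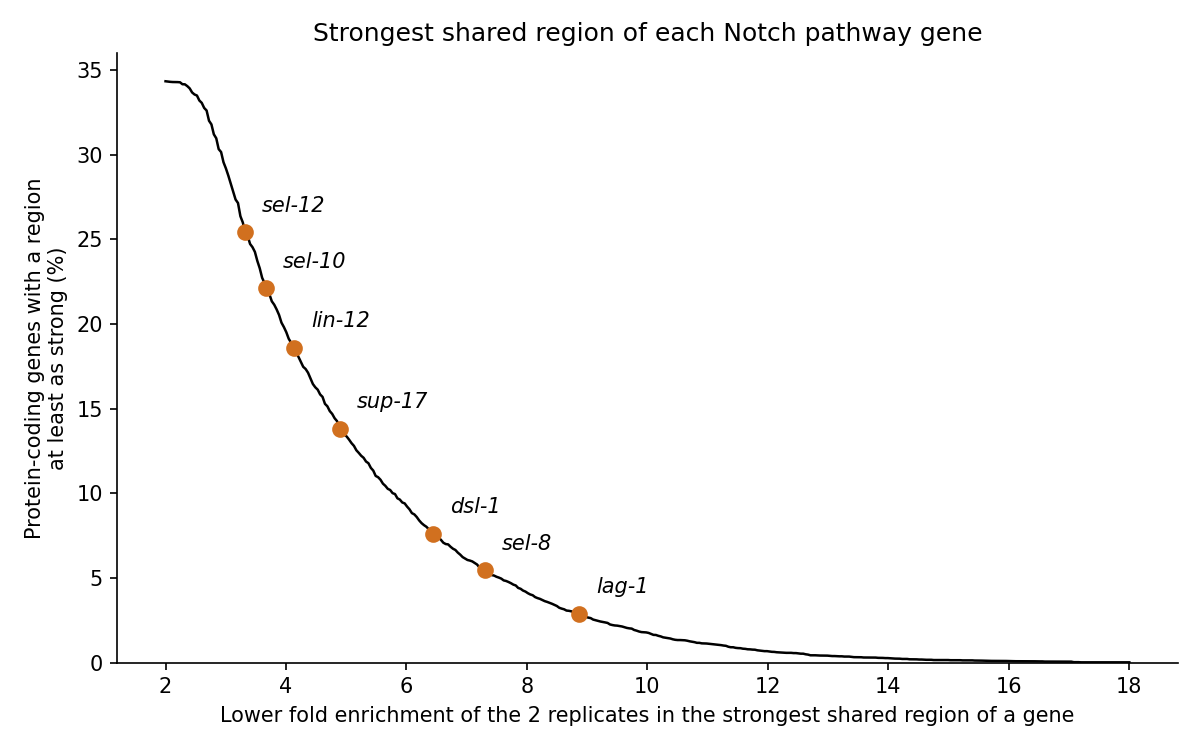
Share of the 19985 protein-coding genes whose strongest shared region reaches at least the fold enrichment on the horizontal axis (line; the lower of the 2 replicates is plotted), with the 7 Notch genes that have a shared region as points. *lag-1* lies furthest to the right, where 2.86% of genes are as strong, and *sel-12* furthest to the left, at 25.4%.

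In their position, the 15 regions were split between introns (8) and upstream sequence (7), and no summit fell in an exon. Over all pairs of a protein-coding gene and a shared region under the same rule, 18.3% of summits were intronic, 75.3% upstream and 4.41% exonic. Intron 1 of the longest transcript held 6 of the 15, against 7.12% of all pairs, and these 6 were the 5 of *sel-8* and the 1 of *lag-1*. The 5 of *sel-8* are not independent observations because they share a gene. The general share takes no account of intron length, and these first introns measure 8533 bp and 5917 bp. Without *sel-8* and *lag-1*, the only intronic regions were those of *lin-12*. The summits of the replicates were 4 to 165 bp apart, with a median of 38 bp against 25 bp for all shared regions.

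The number of regions at each gene was also counted under 11 other rules, such as a q-value of at most 1e-05, a shorter upstream limit or a single replicate, and 1 of the 11, a q-value of at most 0.01, removed no peak. *lin-12*, *lag-1*, *sel-10* and *sel-8* had a region under all 11, *glp-1* and *apx-1* under none, and *lag-2* only when replicate 1 was taken alone.

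**Figure D4:**
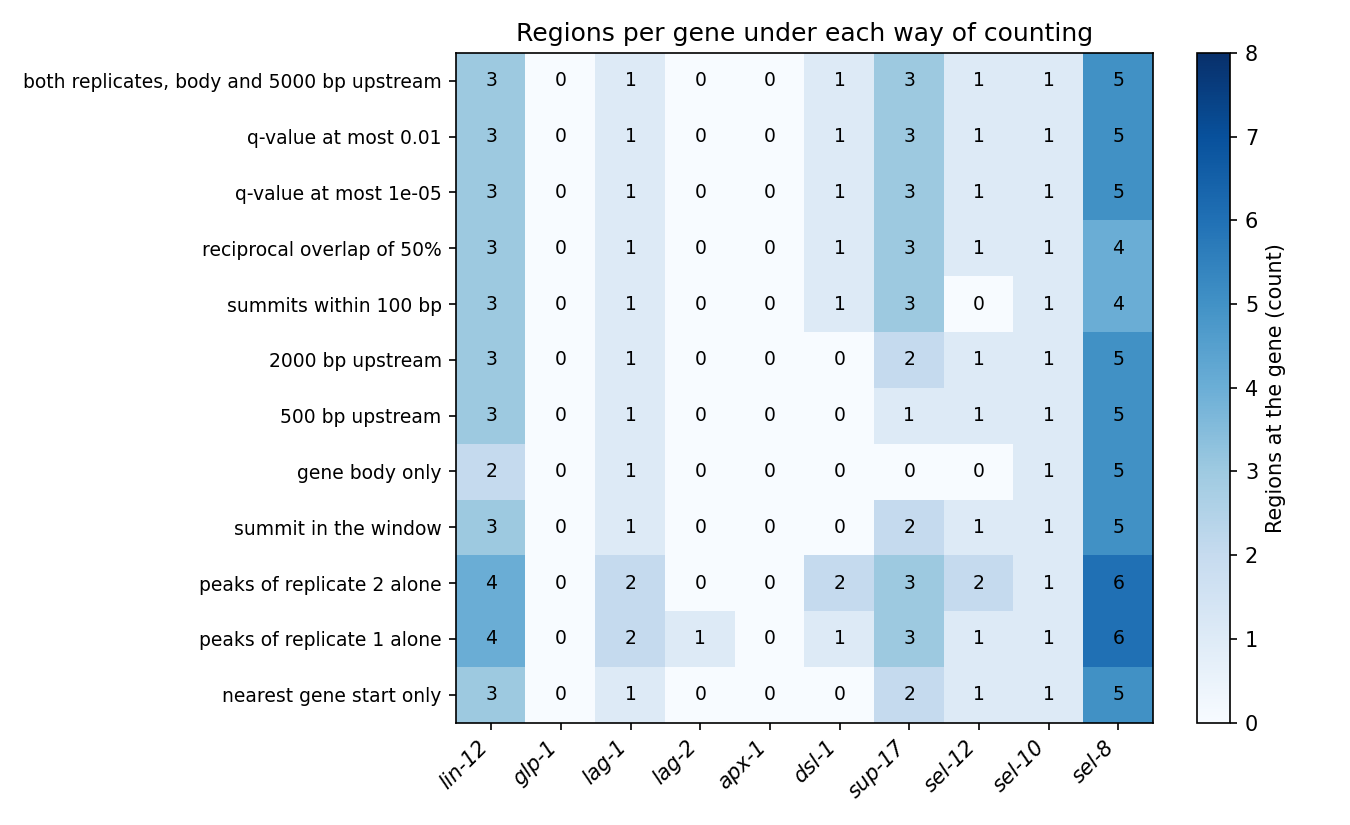
Number of regions at each gene (colour and digits) under the rule of the report (first line) and 11 other rules, where the lines for a single replicate count its peaks. *sel-8* holds 4 to 6 under every rule, whereas *dsl-1*, *sup-17* and *sel-12* drop to 0 when only the gene body is counted.

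Beyond the 10 genes, 39 of 40 other pathway genes listed by role could be placed in the annotation, and 12 of them had a shared region in the body or 5000 bp upstream, a share below the 34.4% of all protein-coding genes. Of 12 further ligand and co-ligand genes, 3 had one (*dsl-6*, *dos-2* and *dos-3*), each with another gene's start nearer to the summit. None of 5 further protease genes (*adm-4*, *hop-1*, *aph-1*, *aph-2* and *pen-2*) had a peak in either list, which leaves *sel-12* as the only gene of the presenilin complex with one. Among 7 modifiers of receptor activity, *sel-2* reached 7.64 and 7.19 with its summit 444 bp upstream. *sel-7* reached 4.70 and 5.15 in intron 5, where the start of K04G11.1 was nearer to the summit. Of 15 placed genes known as transcriptional targets of LIN-12 or GLP-1, 7 had a shared region, to be read against the same 34.4%. These 15, and so the 39, include a microRNA gene, whereas the 34.4% covers protein-coding genes only. The highest was that of *egl-43* itself, at 17.7 and 16.5 and 719 bp upstream. It was followed by *dpy-23*, an adaptin gene that counteracts vulval induction, at 12.1 and 12.5 with the summit 348 bp upstream. The germline target *lst-1* gave 8.36 and 7.91 at 2735 bp, and *lip-1*, which encodes a MAP kinase phosphatase, gave 7.71 and 8.29 at 3693 bp upstream. *lst-2*, *lst-4* and *hlh-27* had weaker or more distant regions, and for *lst-4* and *hlh-27* another gene's start was nearer. These lists are small, and no share among them was tested.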

How the data were processed

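Binding of EGL-43::GFP was measured by ChIP-seq in whole L3 larvae, in 2 replicates of 1 condition, which the labels number. The authors aligned reads to ce11 with BWA, converted them with SAMtools and called peaks with MACS2 on each replicate separately, at a stated false discovery rate of 0.05. The deposited fold enrichment is a ratio to the background that MACS2 estimated, without a control library named. The −log10 of the p-value and of the q-value are the authors' MACS2 values, and the highest q-values were 0.00395 and 0.00688. The deposited score, a rounded 10 times −log10 q, entered no step. The combined peak list that the authors made afterwards was not used here, and read depth is unknown.

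All positions count from 1 on WBcel235, and the last peak of each chromosome lay within the reference. Peaks overlapping by at least 1 bp were merged. Positions in exons and introns refer to the longest transcript. A position is that of the higher replicate summit. Member genes, word lists and gene lists were chosen with earlier results of these data known. The named genes are the 10 members, the listed pathway genes with a shared region, and neighbours that a region touches or lies nearer to. *lst-3* could not be placed by name. Alternatives were q-value limits of 0.01, which removed no peak, and 1e-05, a reciprocal overlap of 50%, summits within 100 bp, other upstream limits (2000 bp, 500 bp, none), the summit in the window, the nearest gene start, each replicate alone, ranking by p-value and a wider word window. No group comparison exists, so no test was run, and replicates give a spread only. Merging and placement were tested on simulated data. Python 3.11.15, numpy 2.4.6 and matplotlib 3.10.9 were used.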

Additional observations from a re-analysis of the deposited data

How the results depend on the processing

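Counting the gene body alone reduced the Notch genes with a shared region from 7 to 4 and their shared regions from 15 to 9, because the regions of *dsl-1*, *sup-17* and *sel-12* are upstream. The share of all protein-coding genes with a shared region fell from 34.4% to 12.1% under the same change. The body of *sel-10* was touched by only 14 bp. Words within 100 bp instead of 50 bp of the summit raised the member regions with TGGGAA from 0 to 2. Under the other alternatives, both counts were within 1.5 times the main ones: 6 to 8 genes and 12 to 20 regions, the latter including peaks of a single replicate. The share of all protein-coding genes ran from 18.3% to 43.1% under these alternatives. The q-value limit of 0.01 removed no peak and tests nothing. The region found strongest was the same in at least 6 of 7 genes when ranked by p-value or in 1 replicate. In replicate 1 the exception was *lin-12* (upstream, 4.96), and by p-value it was *sel-8* (region 4 of intron 1, 6.97). The lists hold no depth, and 2 replicates set the limit on how finely fold enrichments can be told apart.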

Other observations

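Repeats of pyrimidines or purines are visible in several of the printed windows, and the words for this count were chosen after the sequences had been seen. TCTCTC or its complement GAGAGA occurred within 50 bp of the summit at 6 of the 15 member regions (the upstream region of *lin-12*, *lag-1*, the closest of *sup-17*, and regions 1, 3 and 4 of *sel-8* intron 1), against 30.7% of all shared regions. TTCTTC or GAAGAA occurred at 3 of the 15, against 17.6%. Both shares are near the general ones.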
